A study of Mus musculus with 16 samples.

Results

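The lysyl oxidase family of the mouse has 5 genes, Lox, Loxl1, Loxl2, Loxl3 and Loxl4, and all 5 were found among the 36118 gene IDs of the deposited tables. They were taken by name as a whole family, with the high against low Neu5Gc values of these same libraries already known. Those values are therefore given as a description. Where a call of these genes from the fit over all genes is mentioned, or its loss, nothing is read from it. The difference between colorectum and liver was not used in the choice and was tested at each dose, but in these same libraries, so it is not independent of their known high against low values. Bulk RNA-seq was made from the colorectum and the liver of male mice, 8 weeks old, that carried the Min allele of Apc, a truncating mutation that gives rise to intestinal adenomas. Every mouse in every group carried this allele and received Neu5Gc (N-glycolylneuraminic acid) in its drinking water for 14 days. This sugar is a sialic acid that mice make themselves and that humans take up from red meat. The high group drank 0.2535 mg/ml and the low group, which served as control, 0.0127 mg/ml, so that no group went without the agent. By the sample labels there were 6 high and 4 low colorectum libraries and 3 high and 3 low liver libraries. A conflicting count of 6 control and 4 treated mice stands in the design text. The labels are followed here, and an exchange of the colorectum names would turn every colorectum direction round. The labels do not say whether each library came from a separate mouse, so the spread between libraries may be partly technical.

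Lysyl oxidases are secreted, copper-dependent amine oxidases. They convert lysine and hydroxylysine side chains of collagen and lysine side chains of elastin to reactive aldehydes, from which the covalent cross-links of mature collagen and elastic fibres form. Lox and Loxl1 are made with a propeptide that the proteinase BMP1 and its tolloid relatives remove, while Loxl2, Loxl3 and Loxl4 carry scavenger receptor cysteine-rich domains in front of the shared catalytic domain. Fibroblasts, smooth muscle cells and, in the liver, stellate cells and portal fibroblasts are usual sources, and family members are known from fibrosis and from the stroma of colorectal and hepatic tumours.

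Total estimated counts ran from 46093154 to 70673315 in the high and 48273159 to 73913571 in the low colorectum libraries. They ran from 68835890 to 86112726 in the high and 47511128 to 55887830 in the low liver libraries, where depths did not overlap. The 8 hepatocyte markers summed to 52600 to 69400 TPM (a level scaled by transcript length and library total) in high livers and 62200 to 67600 TPM in low livers. The 8 colon epithelial markers summed to 5210 to 6690 TPM in high and 7600 to 13800 TPM in low colorectum libraries. Of these, Car1 alone averaged 541 TPM in the high and 5710 TPM in the low libraries. Of the 8 markers, 4 had a lower and 4 a higher value in the high libraries, with a median log2 change of 0.041. The sums therefore do not measure the share of epithelium. Some libraries held RNA of other organs. Kidney tubule markers summed to 19900 TPM in low colorectum library 4, against at most 71.6 TPM in any other colorectum library. Pancreatic acinar markers summed to 6380 TPM in low colorectum library 3, to 5010 TPM in high liver library 1 and to 12200 TPM in low liver library 1. Skeletal muscle markers summed to 182 to 245 TPM in the high livers and 3.43 to 15.9 TPM in the low livers.

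The family was expressed at different levels and in a different mix in each tissue. In the colorectum the summed level of the 5 genes was 24.2 ± 7.10 TPM in the high group (SD, n = 6) and 29.3 ± 5.71 TPM in the low group (n = 4). In the liver the sum was 2.36 ± 0.0806 TPM in the high group and 8.47 ± 2.16 TPM in the low group (n = 3 each). Without Loxl4 the liver sums were 1.91 ± 0.105 TPM in the high group and 2.84 ± 0.344 TPM in the low group. Loxl4 made up 14.9 to 23.6% of the family's TPM in the high livers and 57.4 to 70.3% in the low livers. In the colorectum its share was 3.24 to 4.25% in the high and 4.62 to 6.38% in the low libraries. Lox made up 4.42 to 6.81% of the family in the high and 9.95 to 12.2% in the low colorectum libraries, and these ranges did not overlap.

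**Figure D1:**
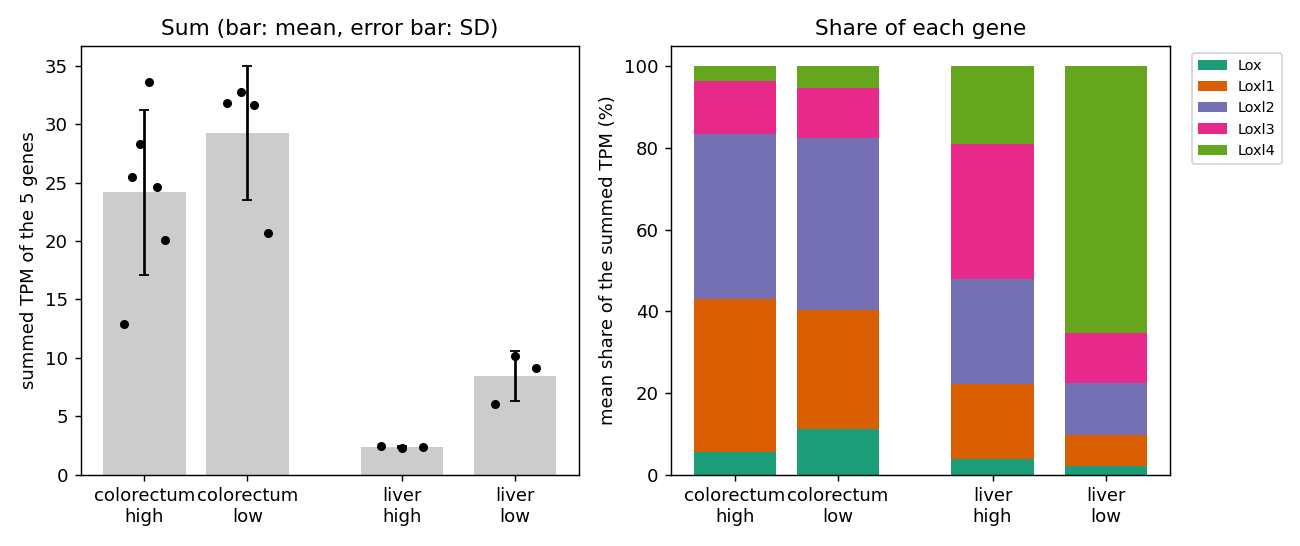
The left panel plots the summed TPM of the 5 lysyl oxidase genes (points are libraries, bars are group means, error bars are SD) and the right panel the mean share of each gene in that sum, in percent. The high livers sum to 2.29 to 2.45 TPM and the low livers to 6.05 to 10.2 TPM, and the Loxl4 band averages 18.9% in the high and 65.4% in the low livers.

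In the high colorectum the order of levels per transcript length was Loxl2 (9.91 ± 3.70 TPM), Loxl1 (8.93 ± 2.14), Loxl3 (3.08 ± 1.24), Lox (1.37 ± 0.590) and Loxl4 (0.878 ± 0.227 TPM; SD, n = 6). In the low colorectum it was Loxl2 (12.3 ± 2.78 TPM), Loxl1 (8.55 ± 1.59), Loxl3 (3.56 ± 1.01), Lox (3.28 ± 0.792) and Loxl4 (1.56 ± 0.218 TPM; n = 4). The order was the same, but Loxl2 and Loxl1 overlapped in both groups, as did Loxl3 and Lox, and in the high group Lox and Loxl4 overlapped too. In the high liver the order was Loxl3 (0.786 ± 0.0614 TPM), Loxl2 (0.602 ± 0.0105), Loxl4 (0.448 ± 0.107), Loxl1 (0.434 ± 0.0375) and Lox (0.0918 ± 0.000556 TPM; n = 3). In the low liver Loxl4 led (5.63 ± 1.89 TPM), before Loxl2 (1.05 ± 0.193), Loxl3 (0.995 ± 0.102), Loxl1 (0.624 ± 0.0323) and Lox (0.169 ± 0.0313 TPM; n = 3). Loxl4 and Loxl1 overlapped in the high livers, and Loxl2 and Loxl3 in the low livers.

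**Figure D2:**
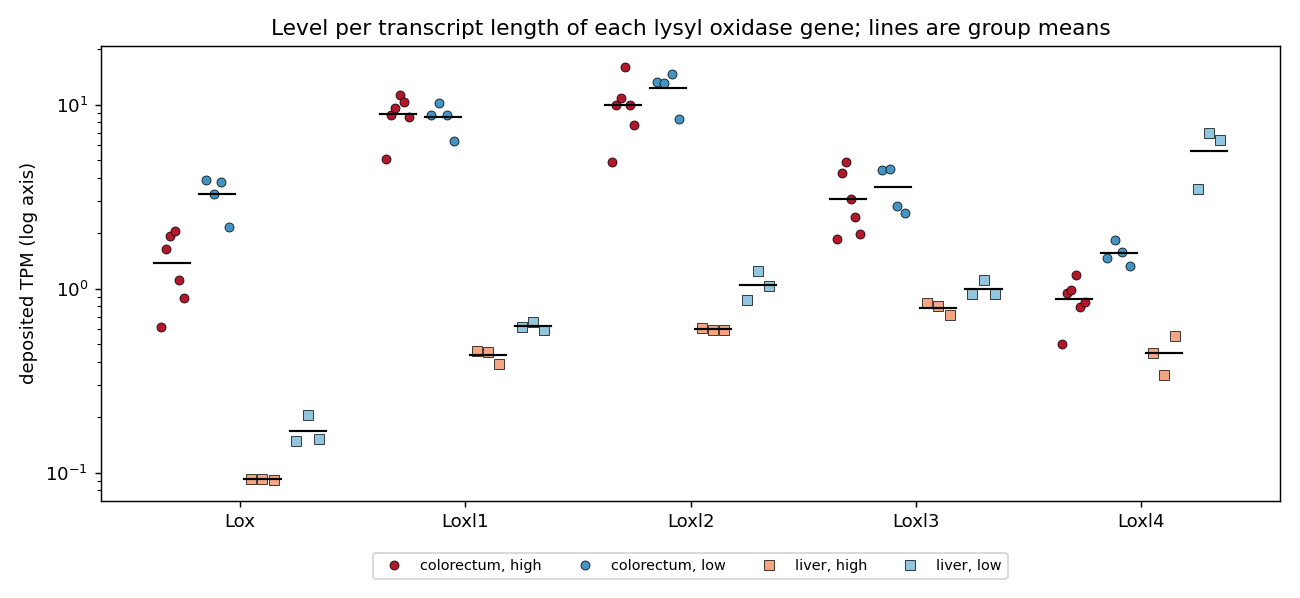
Deposited TPM of each lysyl oxidase gene in every library (circles, colorectum; squares, liver; red shades, high; blue shades, low) on a log axis, with lines at the group means. Loxl4 is at 0.340 to 0.554 TPM in the high livers and at 3.47 to 6.99 TPM in the low livers. On this scale Lox, Loxl1, Loxl2 and Loxl3 lie higher in every colorectum library than in any liver library.

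In the liver, the widest difference between high and low Neu5Gc within the family was that of Loxl4 (ENSMUSG00000025185), which in humans and mice encodes a cross-linking enzyme of the scavenger receptor type. Its level was 1.37, 1.10 and 1.94 CPM (counts scaled by library size with TMM factors, used for each gene's comparison between high and low) in the high livers and 10.7, 18.9 and 17.5 CPM in the low livers. The highest of the high livers was thus far below the lowest of the low livers, and low library 1 was the lowest of its group. The means were 1.47 ± 0.430 CPM in the high and 15.7 ± 4.40 CPM in the low livers (SD, n = 3 each), a 10.7-fold lower level with high Neu5Gc (log2 change -3.42, SE 0.28). Only 9 of the 15522 genes tested in the liver had a lower log2 change. These values rest on 91 to 156 estimated counts per high liver library and 579 to 1082 per low liver library. Leaving out any single liver library, the log2 change stayed between -3.67 and -3.24, and without the pair of libraries with pancreatic RNA it was -3.59. On the deposited TPM it was -3.34 as log2(TPM + 0.1) and -2.15 as log2(TPM + 1), a pseudocount above the level of this gene in the high livers.

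Of the 5 genes, only Loxl4 matched an entry of the RefSeq promoter table. The 250 bases before its start (GRCm38.p6, chr19:42612807-42613056, minus strand) are shown because this gene carried the widest change of the family, with capitals on matches to the GC box GGGCGG, which zinc finger factors of the Sp family bind.
Loxl4: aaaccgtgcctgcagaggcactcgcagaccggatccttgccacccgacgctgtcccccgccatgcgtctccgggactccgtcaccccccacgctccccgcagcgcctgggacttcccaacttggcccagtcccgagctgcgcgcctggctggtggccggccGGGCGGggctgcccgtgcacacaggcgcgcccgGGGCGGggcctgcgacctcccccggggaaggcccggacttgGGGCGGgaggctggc
This stretch was 76.0% G or C, against a median of 52.4% over the 32851 promoters of the table. It held 3 matches to GGGCGG, searched on both strands, and at least 1 match was found in 32.7% of all promoters. Neither strand of this window held the TATA box letters TATAAA, which 12.4% of all promoters held. The E-box of basic helix-loop-helix factors, CACGTG, was not in it either, against 6.02% of all promoters. The core of hypoxia response elements, ACGTG, which lies within that E-box, was likewise not in it, against 16.6% of all promoters.

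The other 4 genes were also lower in high livers, by less. Loxl2 (ENSMUSG00000034205), a collagen cross-linking enzyme known from fibrotic liver, was at 2.60, 2.65 and 2.90 CPM in the high livers and at 3.69, 4.68 and 3.90 CPM in the low livers. The groups did not overlap, and its log2 change was -0.59 (SE 0.17). Lox (ENSMUSG00000024529), the founding enzyme of the family, was at 0.375, 0.398 and 0.423 CPM in the high livers and at 0.608, 0.733 and 0.557 CPM in the low livers. Its groups did not overlap either (log2 change -0.67, SE 0.29), but each library held only 26 to 42 estimated counts of it. Loxl1 (ENSMUSG00000032334), which is needed for elastic fibre upkeep in mice, was at 1.31, 1.36 and 1.28 CPM in the high livers and at 1.77, 1.66 and 1.51 CPM in the low livers. It lay lower in every high liver (log2 change -0.32, SE 0.20). Loxl3 (ENSMUSG00000000693), which mice need for palate and spine development, was at 1.95, 2 and 1.91 CPM in the high livers and at 2.21, 2.30 and 1.95 CPM in the low livers. These groups overlapped (log2 change -0.14, SE 0.18).

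In the liver 4 of the 5 genes lay lower in every high library than in any low library, where 14.1% of all genes tested did so. By edgeR's quasi-likelihood test across all genes, 1 of the 5, Loxl4, was past an adjusted p of 0.05, against 6.47% of all genes, and nothing is read from either count since the family was chosen on this contrast. The median log2 change was -0.59 over the 5 genes and 0.0027 over all genes tested. On the deposited TPM the median of all genes shifted to -0.161, so that TPM values lie lower in the high livers for most genes: the calls over all genes were 489 higher and 515 lower by counts, and 158 higher and 1467 lower on log2(TPM + 1). The 5 changes were negative on both scales and in every alternative run. The muscle RNA of the high livers moved with this contrast, and its part in the result was not tested. In bulk tissue, fewer cells of a type and less RNA per cell cannot be told apart.

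**Figure D3:**
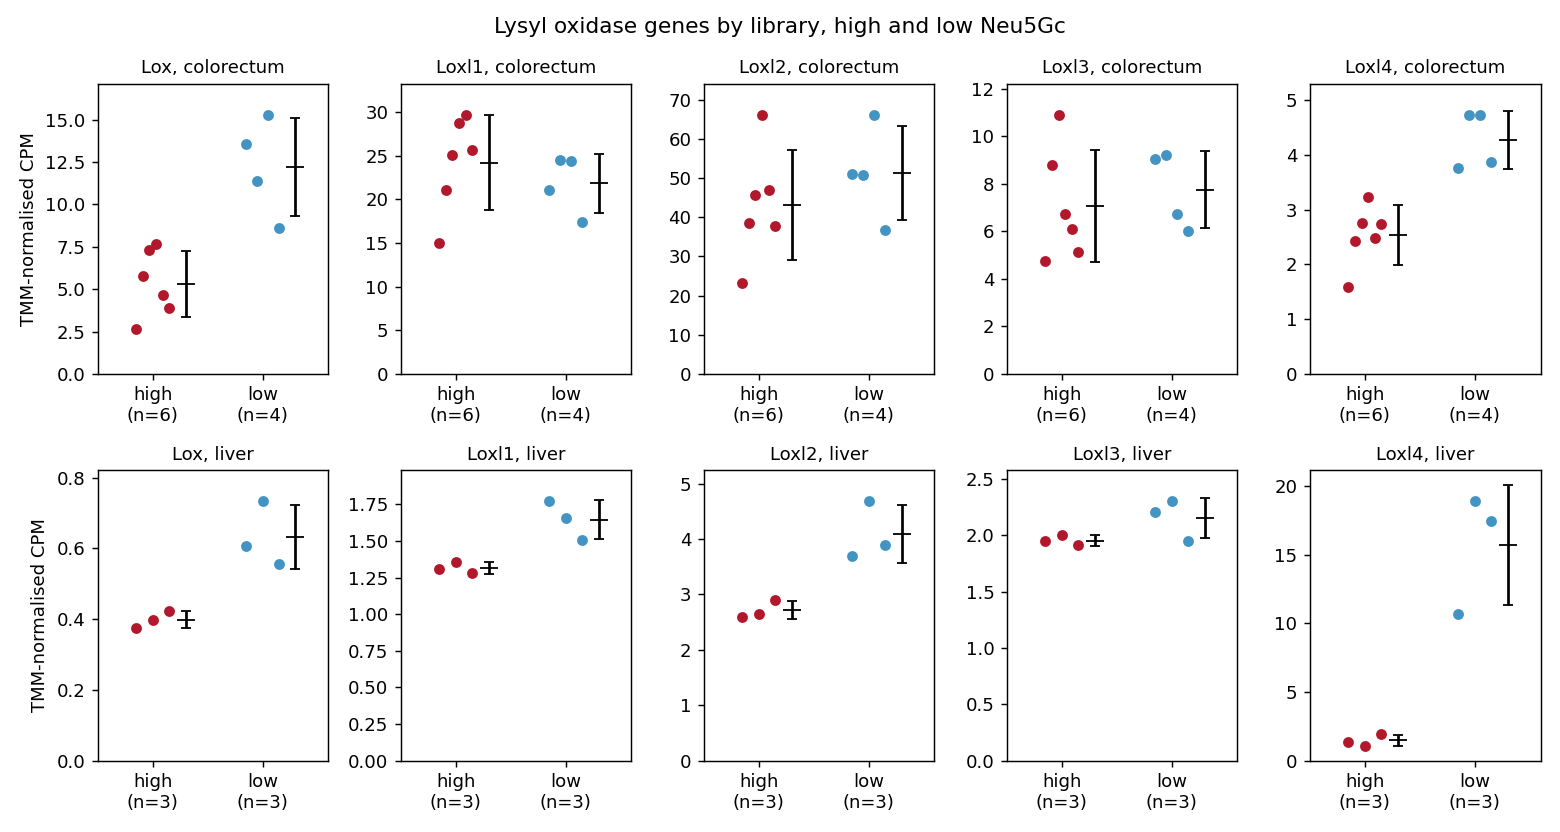
TMM-normalised CPM of each lysyl oxidase gene in every library (red, high; blue, low; upper row colorectum, lower row liver), with mean and SD beside the points and axes from 0. Loxl4 is at 1.10 to 1.94 CPM in the high and 10.7 to 18.9 CPM in the low livers, and in the colorectum Lox and Loxl4 separate by group while Loxl1, Loxl2 and Loxl3 overlap.

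In the colorectum, Lox and Loxl4 were the members that differed most. Lox had a lowest value of 2.65, a median of 5.21 and a highest value of 7.65 CPM in the high libraries, against 13.6, 11.4, 15.3 and 8.59 CPM in the low libraries. All 6 high libraries lay below all 4 low libraries. The means were 5.32 ± 1.96 CPM in the high and 12.2 ± 2.90 CPM in the low libraries (SD, n = 6 and 4), a 2.30-fold lower level (log2 change -1.20, SE 0.29). Leaving out any single library, the log2 change of Lox stayed between -1.34 and -1.06.

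Loxl4 ran from 1.59 through a median of 2.61 to 3.22 CPM in the high colorectum libraries, against 3.76, 4.73, 4.73 and 3.86 CPM in the low libraries. Its groups did not overlap (2.54 ± 0.542 CPM in the high and 4.27 ± 0.530 CPM in the low libraries). Its log2 change was -0.75 (SE 0.21), to be set beside -3.42 (SE 0.28) in the liver. The difference between these changes was not tested, because both come from the contrast on which the family was chosen.

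The remaining 3 genes, which include those at the highest level, overlapped between groups in the colorectum. Loxl1 ran from 15 through 25.4 to 29.7 CPM in the high libraries, against 21.1, 24.5, 24.4 and 17.4 CPM in the low libraries (log2 change 0.15, SE 0.19). Loxl2 ran from 23.3 through 42.2 to 66.1 CPM in the high libraries, against 51.1, 50.9, 66.2 and 36.7 CPM in the low libraries (log2 change -0.25, SE 0.25). Loxl3 ran from 4.74 through 6.41 to 10.9 CPM in the high libraries, against 9.05, 9.20, 6.72 and 6.01 CPM in the low libraries (log2 change -0.13, SE 0.25). The lowest and the highest value of Loxl3 both came from the high group, and so did those of Loxl1.

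Of the 5 genes, 2 lay lower in every high than in any low colorectum library, where 6.43% of all genes tested did so. The same 2 were past an adjusted p of 0.05, against 15.5% of all genes, and again nothing is read from these counts. Loxl4 was no longer past 0.05 when low library 1 or 2 or high library 1, 3, 5 or 6 was left out, with log2 changes of -0.81 to -0.65. Without low libraries 3 and 4, which held pancreatic and kidney RNA, the log2 changes were -1.27 for Lox and -0.78 for Loxl4, and Loxl4 was again not past 0.05. High library 1 held the lowest colorectum value of all 5 genes. It also had the lowest summed level of the 10 fibroblast markers, 250 TPM, against 319 to 418 TPM in the other high and 286 to 499 TPM in the low libraries. None of the 10 fibroblast markers passed by edgeR, where 4 had an unadjusted p under 0.05, and 1 rose and 1 fell by DESeq2. Without low libraries 3 and 4, 2 of them fell. Of 10 smooth muscle markers, 1 fell and 9 did not pass, and 3 fell without low libraries 3 and 4. The 1 was the myosin light chain kinase gene Mylk (log2 change -0.95, SE 0.15, adjusted p = 0.00254, edgeR), whichever library was left out. The smooth muscle markers summed to 1940 to 4050 TPM in the high and 2350 to 4430 TPM in the low libraries. Of 9 tested markers of stellate cells, which pericytes share in part, 3 fell, and 4 without low libraries 3 and 4. The stellate markers summed to 226 to 479 TPM in the high and 451 to 552 TPM in the low libraries. These sums include Pth1r, at up to 131 TPM in the low and up to 3.78 TPM in the high libraries. Its log2 change of -3.58 was -0.71 without low library 4. Even so, that library had the lowest stellate sum of the low group, at 451 TPM, and high library 4, at 479 TPM, lay above it. Of 9 tested endothelial markers 4 fell, and none without low libraries 3 and 4, where the median log2 change of the list was -0.39, against -0.58 with them. Their sums did not overlap, at 50.9 to 76.2 TPM in the high and 77.4 to 100 TPM in the low libraries. Over all genes, 8.21% fell. No marker of these 4 lists was at 0 in all libraries, and their part in the members' values was not tested.

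The tissue difference was tested at each dose in a fit of all 16 libraries. Lox, Loxl1 and Loxl2 were higher in the colorectum at both doses, and Loxl3 missed the threshold at both. The tissue difference of Loxl4 carries the gap between high and low livers that was known when the family was chosen, so its values are given as a description. By edgeR's quasi-likelihood test, 3 of the 5 genes passed an adjusted p of 0.05 at high Neu5Gc, all higher in the colorectum, against 71.1% of all 18703 genes tested (37.5% higher and 33.6% lower). At low Neu5Gc 4 of the 5 passed, 3 higher and 1, Loxl4, lower in the colorectum, against 67.1% of all genes (36.1% higher and 31.1% lower). Loxl4 is counted there as part of its description, and nothing is read from its call. Most genes differed between the tissues, so these counts show nothing particular to the family.

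At high Neu5Gc the log2 difference, colorectum minus liver, was 2.91 for Loxl1 (SE 0.21, adjusted p = 5.42e-09), 2.69 for Loxl2 (SE 0.27, adjusted p = 2.34e-07) and 2.44 for Lox (SE 0.33, adjusted p = 6.0e-06). At low Neu5Gc it was 2.43 for Loxl1 (SE 0.22, adjusted p = 7.09e-08), 2.35 for Loxl2 (SE 0.28, adjusted p = 1.7e-06) and 2.97 for Lox (SE 0.35, adjusted p = 1.52e-06). These are levels 5.10 to 7.85 times as high in the colorectum, and every colorectum library lay above every liver library of its dose, as for 36.1% of all genes at high and 34.9% at low Neu5Gc. Loxl1, for example, averaged 17.3 ± 3.79 CPM in the colorectum and 2.30 ± 0.0816 CPM in the liver at high Neu5Gc (SD, n = 6 and 3). Loxl3 differed by 0.56 (SE 0.25, adjusted p = 0.056) at high and by 0.55 (SE 0.27, adjusted p = 0.0818) at low Neu5Gc. At low Neu5Gc its colorectum libraries (4.24 to 6.72 CPM) also lay above its liver libraries (3.40 to 4.05 CPM), while at high Neu5Gc the tissues overlapped. Loxl3 passed at high Neu5Gc without high colorectum library 1 or 6 (adjusted p down to 0.0268, difference up to 0.65), and at low Neu5Gc without low colorectum library 4 (adjusted p = 0.0457, difference 0.66). It also passed without low colorectum libraries 3 and 4, with a difference of 0.57 (adjusted p = 0.0424) at high and 0.82 (adjusted p = 0.0246) at low Neu5Gc. Loxl4 was 9.02-fold lower in the colorectum at low Neu5Gc, at 3.05 ± 0.397 CPM in the colorectum and 27.5 ± 7.65 CPM in the liver (n = 4 and 3; log2 difference -3.17, SE 0.26). At high Neu5Gc Loxl4 was at 1.81 ± 0.380 CPM in the colorectum and 2.56 ± 0.769 CPM in the liver (log2 difference -0.50, SE 0.23, and -0.67 to -0.23 with 1 library left out).

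The values across tissues depend on the scaling. The median log2 difference of all genes was 0.10 at high and 0.114 at low Neu5Gc by TMM, but 1.077 and 1.005 on log2(TPM + 1). The calls over all genes were 7016 higher and 6283 lower in the colorectum at high Neu5Gc by TMM, and 11907 higher and 1730 lower on log2(TPM + 1). At low Neu5Gc they were 6746 higher and 5810 lower by TMM, and 11624 higher and 1668 lower on log2(TPM + 1). Relative to the median of all genes, Loxl1 (2.76 at high, 2.54 at low) and Loxl2 (2.70 and 2.68) stayed on the colorectum side on log2(TPM + 1). Lox was there at the median at high Neu5Gc (1.08) and above it at low Neu5Gc (1.85). Its liver level of 0.0918 TPM at high Neu5Gc lies far below that pseudocount, and on log2(TPM + 0.1) its difference was 2.83 at high and 3.62 at low Neu5Gc. Loxl3 lay near the median (1.14 and 1.17), although it passed the test at both doses on that scale. Loxl4 stayed below the median, but its own difference at high Neu5Gc turned to 0.37 in favour of the colorectum, against -1.33 at low Neu5Gc.

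**Figure D4:**
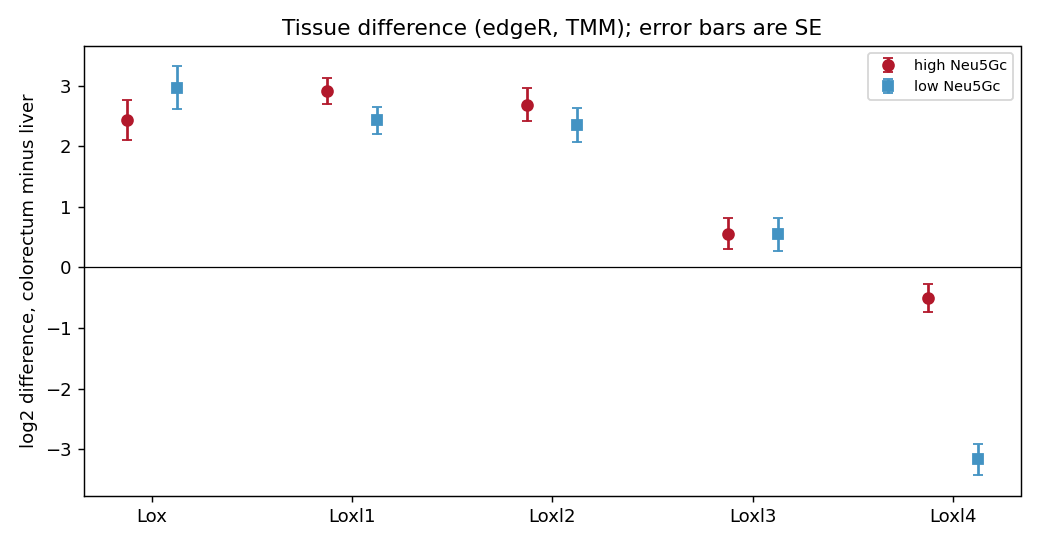
Log2 difference, colorectum minus liver, of each lysyl oxidase gene at high (red circles) and low (blue squares) Neu5Gc, from the edgeR fit of all 16 libraries with TMM scaling, with error bars of 1 SE. Lox, Loxl1 and Loxl2 lie between 2.35 and 2.97 at both doses, and Loxl4 lies at -0.50 at high and -3.17 at low Neu5Gc; on log2(TPM + 1) the high value turns to 0.37.

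Within the colorectum the members varied together to different degrees. Over the 10 libraries the Pearson correlation of log2 CPM was 0.92 between Lox and Loxl4, 0.77 between Lox and Loxl2 and 0.75 between Loxl1 and Loxl2, and 0.23 between Lox and Loxl1. With each group's mean taken out, Lox and Loxl1 correlated at 0.69, Lox and Loxl2 at 0.89, as did Loxl1 and Loxl2, and Lox and Loxl4 at 0.76. Loxl1 and Loxl4 stood at 0.87 within groups, against 0.31 over all 10 libraries, and Loxl1 and Loxl3 at 0.33. These points share their libraries, depth and cell makeup, and high library 1 lies at the low end for every gene. In the liver, over 6 libraries, the correlations ran from 0.62 (Loxl3 and Loxl4) to 0.98 (Lox and Loxl2). With each group's mean taken out, Lox and Loxl2 stood at 0.87 and Loxl1 and Loxl3 at 0.80, but Loxl3 and Loxl4 at -0.28 and Loxl1 and Loxl4 at -0.75.

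Genes with the most similar pattern were sought among 11923 named colorectum genes averaging at least 5 CPM. For Loxl2 they were Col1a1 (r = 0.977) and Col1a2 (0.967), the chains of type I collagen, and the receptor tyrosine kinase Axl (0.964). For Lox they were the hyaluronan receptor Cd44 (0.970), the adhesion receptor Adgrl1 (0.970) and the teneurin Tenm3 (0.968). For Loxl4 they were the microtubule protein Map1a (0.976), the pericyte proteoglycan Cspg4 (0.964) and Vat1 (0.963). For Loxl1 they were the procollagen isomerase Fkbp10 (0.882), the immunoglobulin segment Igkv19-93 (0.882) and Olfml2b (0.880). For Loxl3 they were Gnb4 (0.931), Prkar2b (0.911) and Stard9 (0.905). In the liver, over 6 libraries and 9156 genes, the closest to Loxl4 were Abca7, the tight junction gene Cldn1 and the hyaluronan-binding Itih3, each with r = 0.994. These correlations include the split between high and low livers. With each group's mean taken out they were 0.98, 0.86 and 0.87. The log2 changes of these 3 genes were -0.23, -0.74 and -0.92, against -3.42 for Loxl4. The closest to Loxl2 were Bin3 (0.997), Rnf125 (0.995) and the junction gene Cgn (0.994). Among the closest to Loxl1 were Plbd1 (0.994) and Nat10 (0.986), and the closest to Loxl3 were Tmem129 (0.991), Als2cl (0.990) and Fmo5 (0.989). Lox averaged 0.516 CPM in the liver and was not searched there. These are the highest of many values over few libraries and carry no test.

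In the liver, some genes of collagen processing were lower with high Neu5Gc. Of 20 tested genes for collagen processing and for the proteinases that activate lysyl oxidases, 4 fell, none rose and 16 did not pass, and the median log2 change was -0.42 against 0.0027 over all genes, of which 3.32% fell. Without the libraries numbered 1, which held pancreatic RNA, 1 of the 20 fell and the median was -0.39. Serpinh1, the collagen chaperone HSP47, fell to 7.88 ± 0.791 CPM in the high livers, against 14.9 ± 1.47 CPM in the low livers (log2 change -0.92, SE 0.13, adjusted p = 0.00362, edgeR). Bmp1, the proteinase that releases active Lox from its propeptide, fell to 90.0 ± 1.95 CPM in the high livers, against 129 ± 0.856 CPM in the low livers (log2 change -0.52, SE 0.09, adjusted p = 0.0114). The prolyl hydroxylase subunit P4ha1 (-0.76, SE 0.15, adjusted p = 0.0215) and the procollagen proteinase Adamts2 (-0.56, SE 0.13, adjusted p = 0.0354) fell. Serpinh1 was called whichever library was left out. With single libraries left out, Bmp1 was not called in the fits lacking low 3 or high 2 (largest adjusted p 0.0605). P4ha1 was not called in those lacking low 1, low 3, high 1 or high 2 (largest 0.0966), and Adamts2 in those lacking low 2, low 3 or any of the high libraries (largest 0.154).

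Of 9 fibrillar collagen genes tested in the liver, 2 fell, none rose and 7 did not pass. Without the libraries numbered 1 none passed, and the median log2 change was -0.17 with and without them. Col5a1 fell to 5.83 ± 0.697 CPM in the high livers, against 8.81 ± 0.626 CPM in the low livers (log2 change -0.60, SE 0.14, adjusted p = 0.035). Col3a1 fell to 33.6 ± 2.53 CPM in the high livers, against 47.7 ± 6.84 CPM in the low livers (log2 change -0.51, SE 0.12, adjusted p = 0.0405). Col5a1 was not called in the fits lacking any of the low libraries, high 1 or high 2 (largest adjusted p 0.159), nor Col3a1 in those lacking low 1, low 3 or any of the high libraries (largest 0.157). Col1a1 was at 6.19 ± 0.253 CPM in the high and 8.10 ± 2.31 CPM in the low livers and did not pass (adjusted p = 0.265). Of 20 genes of elastic fibres and the matrix scaffold, 2 fell and 18 did not pass. Again none passed without the libraries numbered 1, where fewer libraries enter the fit and the median log2 change was -0.45, against -0.32 with them. The elastic fibre genes Emilin1 (-0.68, SE 0.14, adjusted p = 0.0244) and Efemp1 (-0.57, SE 0.14, adjusted p = 0.0447) fell. Emilin1 was not called in the fits lacking low 1, low 3, high 1 or high 2 (largest adjusted p 0.107). Efemp1 lost its call in each of the 6 fits with 1 library left out (largest 0.174). Fibronectin (Fn1), a scaffold on which BMP1 meets Lox, had a log2 change of -0.30 (adjusted p = 0.124) and was called without high library 3 (-0.40, adjusted p = 0.0419). Periostin (Postn), a matricellular partner of BMP1, had one of -0.30 (adjusted p = 0.231). None of 8 basement membrane collagen genes passed by edgeR, where 3 had an unadjusted p under 0.05, and 1 rose by DESeq2. Those with the smallest p were Col4a3 (log2 change 1.38, adjusted p = 0.0949), which was called without high library 3 (adjusted p = 0.0228), and Col4a2 (-0.34, adjusted p = 0.178).

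Among other cross-linking enzymes, the transglutaminase Tgm2 fell to 91.4 ± 8.49 CPM in the high livers, against 149 ± 5.45 CPM in the low livers (log2 change -0.70, SE 0.11, adjusted p = 0.0053), whichever library was left out. It was the only one of 4 such genes tested in the liver that passed. None of 7 copper delivery genes passed in the liver by edgeR or by DESeq2, and 0 had an unadjusted p under 0.05. The copper exporter Atp7b (0.17, adjusted p = 0.409) and the copper chaperone Cox17 (0.15, adjusted p = 0.64) had the smallest p. Atp7a, the pump that loads copper onto lysyl oxidases, had a log2 change of 0.15 (adjusted p = 0.833), and its sign turned in 5 alternatives.

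Some stromal cell markers differed in the liver. Of 10 hepatic stellate cell markers, 4 fell, 1 rose and 5 did not pass, and of 10 fibroblast markers 3 fell and 7 did not pass, where 3.32% of all genes fell. The median log2 change was -0.30 over the stellate and -0.37 over the fibroblast markers, and 3 markers of each list had a higher value in the high livers. Reln fell by 0.77 on the log2 scale (SE 0.13, adjusted p = 0.00885), Ngfr by 0.91 (SE 0.16, adjusted p = 0.0103) and Colec11 by 0.44 (SE 0.09, adjusted p = 0.024). The fibroblast marker Col14a1 fell by 0.88 (SE 0.11, adjusted p = 0.00195), Pdgfra by 0.81 (SE 0.18, adjusted p = 0.0322) and Pdgfrb by 0.56 (SE 0.13, adjusted p = 0.037). Des, which skeletal muscle also expresses, rose by 1.05 (SE 0.22, adjusted p = 0.0252). Reln and Col14a1 were called whichever library was left out. Ngfr was not called in the fit lacking high 2, Colec11 in those lacking low 1, low 3, high 1 or high 2, and Des in those lacking low 2 or low 3. Pdgfra was not called in the fits lacking any of the low libraries, high 2 or high 3. Pdgfrb lost its call in each of the 6 fits (largest adjusted p over these genes 0.164). Without the libraries numbered 1, 1 stellate marker fell and 1 rose (median -0.28), and 2 fibroblast markers fell (median -0.54). The summed stellate markers were 90.7 to 106 TPM in the high and 127 to 147 TPM in the low livers, and the fibroblast markers 82.3 to 124 TPM in the high and 147 to 173 TPM in the low livers. Of the stellate sum, Ecm1 alone averaged 49.5 TPM in the high and 68.5 TPM in the low livers. Of the fibroblast sum, Dcn alone averaged 76.8 TPM in the high and 116 TPM in the low livers. TPM values lay lower in the high livers for most genes, so the sums do not measure the share of these cells. None of 10 endothelial markers passed in the liver by edgeR, where all 10 had a lower value (median -0.24), and 2 fell by DESeq2. Among 10 smooth muscle markers, Acta2 fell (-0.96, adjusted p = 0.0442, edgeR), Des rose and 8 did not pass. Acta2 lost its call in 5 of 6 fits without 1 library. Without the libraries numbered 1, no endothelial marker passed, and 3 smooth muscle markers fell and 1 rose. No marker of these 4 lists was at 0 in all libraries. Their part in the lower lysyl oxidase values was not tested.

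**Figure D5:**
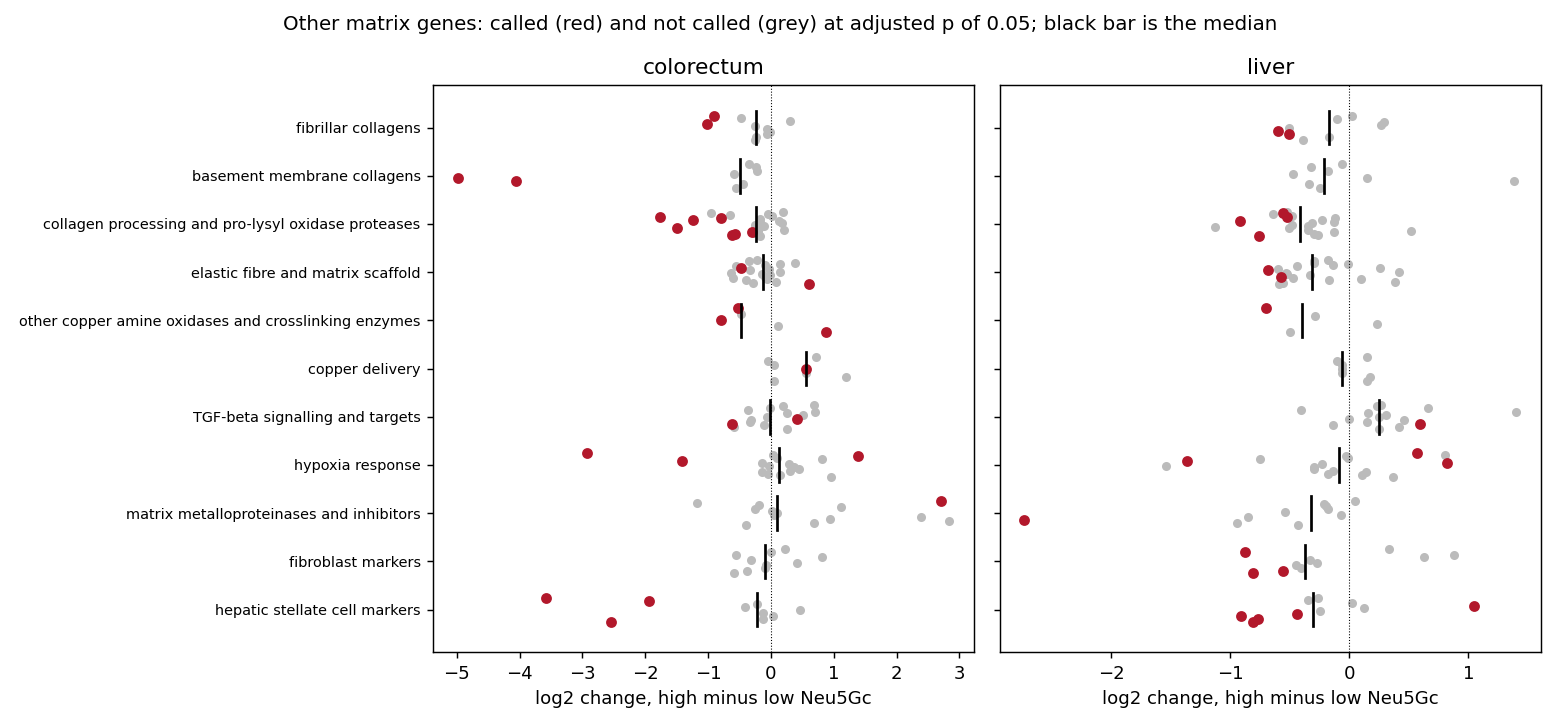
Log2 change, high minus low Neu5Gc, of each tested gene of 11 lists (red, called at an adjusted p of 0.05 by edgeR; grey, not called; black bar, median of the list), for the colorectum on the left and the liver on the right. Of the collagen processing genes, 7 of 24 in the colorectum and 4 of 20 in the liver are called, all on the negative side.

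In the colorectum, some genes of collagen processing were also lower with high Neu5Gc. Of 24 tested, 7 fell, none rose and 17 did not pass, and the median log2 change was -0.23, against -0.015 over all genes, of which 8.21% fell. Without low libraries 3 and 4, 3 of the 24 fell and the median was again -0.23. The collagen galactosyltransferase Colgalt2 fell to 1.69 ± 0.428 CPM in the high libraries, against 4.00 ± 1.38 CPM in the low libraries (log2 change -1.24, SE 0.26, adjusted p = 0.0101), whichever library was left out. The tolloid proteinase Tll2 (-1.77, SE 0.48, adjusted p = 0.0311), the prolyl hydroxylase P4ha2 (-0.62, SE 0.17, adjusted p = 0.0295) and the prolyl 3-hydroxylase P3h2 (-1.49, SE 0.42, adjusted p = 0.0387) fell. Tll2 was not called in the fits lacking low 1, low 2, high 1, high 5 or high 6 (largest adjusted p 0.0827), nor P4ha2 in those lacking low 2, low 4, high 1, high 3 or high 5 (largest 0.0762). P3h2 was not called in those lacking low 4, which held kidney RNA, high 1, high 2, high 4, high 5 or high 6 (largest 0.0923), and its change without low 4 was -0.76. Bmp1 had a log2 change of -0.17 and did not pass (adjusted p = 0.503).

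Of 10 fibrillar collagen genes tested in the colorectum, 2 fell and 8 did not pass, and 1 fell without low libraries 3 and 4. Col27a1 fell to 20.5 ± 3.5 CPM in the high libraries, against 38.5 ± 10.9 CPM in the low libraries (log2 change -0.91, SE 0.18, adjusted p = 0.00846), whichever library was left out. Col11a1 (-1.01, SE 0.27, adjusted p = 0.0284) was not called in the fits lacking low 1, low 2 or high 5 (largest adjusted p 0.0604). The major substrates Col1a1 (-0.25, adjusted p = 0.595) and Col3a1 (-0.07, adjusted p = 0.895) did not pass. Of 8 basement membrane collagen genes, 2 fell by edgeR and none by DESeq2, and 1 fell without low libraries 3 and 4. The 2 called by edgeR were Col4a3 (-4.06, SE 1.05, adjusted p = 0.0317) and Col4a4 (-4.98, SE 1.24, adjusted p = 0.0279), chains known from the kidney glomerulus, and each change was -1.10 without low library 4. Col4a3 was then not called, and neither gene was in the fits lacking high 1, high 3, high 4, high 5 or high 6 (largest adjusted p 0.0794).

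Elastin (Eln), the substrate of Lox and Loxl1, rose to 59.6 ± 13 CPM in the high libraries, against 39.3 ± 7.47 CPM in the low libraries (log2 change 0.60, SE 0.19, adjusted p = 0.0498). That call lies at the threshold and was lost in 8 of 10 fits without 1 library (all but those lacking low 3 or high 1, with a largest adjusted p of 0.115). Ltbp1, which tethers latent TGF-beta to the matrix, fell by 0.48 (SE 0.14, adjusted p = 0.041), and was not called in the fits lacking low 1, low 2, low 3, high 1, high 2, high 5 or high 6 (largest 0.0977). The other 18 of 20 scaffold genes did not pass, among them Fn1 (0.38, adjusted p = 0.413) and Postn (-0.35, adjusted p = 0.40). Without low libraries 3 and 4, 2 of the 20 fell and none rose.

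Other amine oxidases and cross-linking enzymes changed in the colorectum, with 1 of 5 higher and 2 lower, and 1 higher and 1 lower without low libraries 3 and 4. Aoc1, the diamine oxidase that degrades histamine, rose to 228 ± 40.7 CPM in the high libraries, against 124 ± 11.8 CPM in the low libraries (log2 change 0.88, SE 0.15, adjusted p = 0.0037). Aoc3, the vascular adhesion protein of endothelium and smooth muscle, fell to 21.6 ± 2.58 CPM in the high libraries, against 37.2 ± 9.29 CPM in the low libraries (log2 change -0.79, SE 0.15, adjusted p = 0.00742). Both calls held whichever library was left out. Tgm2 fell by 0.52 (SE 0.13, adjusted p = 0.0245), and was not called in the fits lacking low 4 or high 1 (largest adjusted p 0.0566). Of 7 copper delivery genes 1 rose, and 2 without low libraries 3 and 4. The 1 called in all libraries was the copper importer Slc31a1 (0.56, SE 0.14, adjusted p = 0.0217), which was not called in the fits lacking low 1, low 2 or high 5 (largest 0.0565). Atp7a had a log2 change of 0.05 (adjusted p = 0.896), and its sign turned in 4 fits without 1 library.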

How the data were processed

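RNA from 16 colorectum and liver libraries was measured by bulk RNA-seq. The deposited tables hold, per the file headers, estimated counts and TPM per gene for each library, with the build named in the submitters' processing notes as GRCm39. In the sources used here, no aligner or counter is named. Deposited counts equalled TPM times 1 factor per gene and 1 per library, checked over 9202 colorectum and 6707 liver genes. Symbols were found for 35825 of 36118 IDs (99.2%). Total estimated counts of 46093154 to 86112726 per library set the precision.

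Groups followed the sample labels. Estimated counts were rounded and fitted with edgeR 4.0.16 (R 4.3.3; filterByExpr, TMM, robust quasi-likelihood test, Benjamini-Hochberg adjustment, threshold 0.05), each tissue by itself for high against low and all 16 libraries together for colorectum against liver. The script was tested on simulated data. The alternatives were DESeq2 1.42.0 (size factors, Wald test), limma 3.58.1 on log2(TPM + 1) and log2(TPM + 0.1) with and without a minimum mean of 0.5 TPM, no count filter, no robust step, other sets of libraries, each library left out and the replicate number as a block. Genes of the lists were picked as up to 4 called members with the smallest p, or the 2 with the smallest p where none was called, plus Bmp1, Atp7a, Fn1 and Postn. Not every gene picked in this way is given in the text. Col1a1 in both tissues and Col3a1 in the colorectum were added after their values were seen. For each member averaging at least 1 CPM, the 3 genes of most similar pattern were named, except 1 that is not reported here. The members and lists were chosen with earlier results of these data known. The promoter sequence is from RefSeq (GRCm38.p6). No 2 libraries held identical values.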

Additional observations from a re-analysis of the deposited data

How the results depend on the processing

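Over all alternatives, the sign of each lysyl oxidase gene's high against low change stayed as reported, and 167 of 178 values moved by less than 1 SD between libraries while 11 moved more. These 11 were all on TPM scales. On log2(TPM + 1), with and without the filter, the liver changes were -2.15 for Loxl4, -0.35 for Loxl2 and -0.18 for Loxl1, and the colorectum change of Loxl4 was -0.45. Lox in the liver was at -0.10 without the filter, and on log2(TPM + 0.1) Loxl1 was at -0.44 and Loxl3 at -0.30 in the liver. Of 180 tissue values, 161 kept their direction and side of the threshold, 16 newly passed and 3 reversed. These were Loxl4 at high Neu5Gc, at 0.37 on log2(TPM + 1), 0.82 on log2(TPM + 0.1) and 0.37 without the TPM filter. The count of members called in the tissue contrast at high Neu5Gc was 5 on both TPM scales, against 3, and 3 to 4 with 1 library left out. At low Neu5Gc it was 4 to 5 with 1 library left out. Genes called in the colorectum, 2784 by the reported fit, were 1720 on log2(TPM + 1), 1734 on log2(TPM + 0.1), 1431 without the TPM filter, and 1592 to 3654 with 1 library left out. Genes called in the liver, 1004 by the reported fit, were 1742 by the DESeq2 Wald test, 1625 and 1636 on the TPM scales, 446 with all 16 libraries in 1 fit, 365 without the libraries numbered 1 (chosen after seeing the data), and 387 to 935 with 1 library left out. The cause was not tested, except that fewer libraries enter the last fits. Lox in the liver was not tested under the TPM filter.

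Of 1271 values of other named genes, 933 kept their call, 300 lost it, 22 gained it and 16 reversed, all of genes that did not pass. Atp7a ran from -0.07 to 0.34 in the colorectum and from -0.13 to 0.52 in the liver with 1 library left out, and in the liver was -0.02 on log2(TPM + 1) with and without the filter and -0.28 without the libraries numbered 1. On log2(TPM + 1), with and without the filter, and log2(TPM + 0.1), Atp7b in the liver was -0.02, -0.02 and -0.03, and Cox17 -0.06, -0.06 and -0.07. Cox17 ran from -0.04 to 0.25 with 1 library left out.

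The labels do not say whether the replicate numbers pair the samples. Correlations of deviations from the means of few libraries cannot decide it. Same-numbered deviations correlated at -0.10 to -0.03 in the colorectum, 0.07 to 0.47 in the liver and -0.13 to 0.02 between tissues. The value of 0.47 was that of the liver libraries numbered 1, which both held pancreatic RNA and matched each other best. With the replicate number as a block, 477 genes were called in the colorectum and 630 in the liver. Neither Lox (-1.13, SE 0.37) nor Loxl4 (-0.81, SE 0.29) was then past 0.05 in the colorectum. High colorectum libraries 5 and 6 have no low library of their number, so they added nothing to that blocked contrast. The lower count is therefore not read as an effect of pairing. In the blocked tissue contrast at high Neu5Gc 5 members were called, 4 higher and 1 lower in the colorectum. Depth limits Lox in the liver most, at 26 to 42 estimated counts per library.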

Other observations

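Single genes of other lists passed edgeR's quasi-likelihood test between high and low Neu5Gc, and the lists as such were not tested. In the liver, 4 of 10 macrophage markers fell, none rose and 6 did not pass, where 3.32% of all genes fell. Adgre1, which encodes F4/80, was at 20.1 ± 3.90 CPM in the high and 32.3 ± 1.55 CPM in the low livers (SD, n = 3 each; log2 change -0.69, adjusted p = 0.0198), and lost its call without low library 2 or 3 or high library 2. The other 3 were Cd68 (-0.57, adjusted p = 0.027), Csf1r (-0.67, adjusted p = 0.049) and C1qb (-0.41, adjusted p = 0.0482), each of which lost its call in at least 5 of 6 fits without 1 library. Without the libraries numbered 1, 2 of the 10 fell, with a median log2 change of -0.45, against -0.41 with them. Of 16 hypoxia response genes in the liver 13 did not pass, where 6.47% of all genes passed. Of the others, Bnip3 rose (0.82, adjusted p = 0.00783) and Ndrg1 fell (-1.36, adjusted p = 0.00163) whichever library was left out, and Ak4 rose (0.57, adjusted p = 0.0103) except without low library 3. Among 15 genes of TGF-beta signalling and its targets, 13 had a higher value in the high livers, with a median log2 change of 0.25. Only Tgfbr1 passed (0.59, adjusted p = 0.0186), and it lost its call in 4 of 6 fits without 1 library. Among 10 metalloproteinase and inhibitor genes only Mmp7 passed (-2.73, adjusted p = 0.0222), and it lost its call in 4 of 6 fits. Without the libraries numbered 1 no gene of either list passed. Of 12 skeletal muscle markers 11 rose, and 7 without the libraries numbered 1, where the median log2 change was 5.99, against 5.10 with them.

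In the colorectum, Rgs5, a pericyte gene, fell to 71.4 ± 20.2 CPM in the high libraries, against 274 ± 72.7 CPM in the low libraries (SD, n = 6 and 4; log2 change -1.94, adjusted p = 0.000417). Lrat, which stores vitamin A as esters, fell to 1.75 ± 0.790 CPM in the high libraries, against 10.3 ± 2.64 CPM in the low libraries (-2.55, adjusted p = 0.00112). Timp4, a metalloproteinase inhibitor and the only one of 13 tested genes of its list to pass, rose to 7.14 ± 2.16 CPM in the high libraries, against 1.10 ± 0.388 CPM in the low libraries (2.70, adjusted p = 0.000506). These 3 calls held whichever library was left out, and 15.5% of all genes passed. Of the endothelial markers that fell, Kdr (-0.69, adjusted p = 0.0126) and Tek (-0.70, adjusted p = 0.0132) were called in all 10 fits with 1 library left out. Without low libraries 3 and 4 together, Kdr was at -0.50 (adjusted p = 0.0643) and Tek at -0.47 (adjusted p = 0.0802). Among 15 TGF-beta genes, Tgfbr1 fell by edgeR (-0.62, adjusted p = 0.0172) whichever library was left out. Smad2 rose (0.42, adjusted p = 0.0216) except without low library 1, and 13 did not pass. Among 16 hypoxia response genes, Egln3 rose (1.39, adjusted p = 0.0102) and Ndrg1 fell (-1.41, adjusted p = 0.013) whichever library was left out. Ak4 fell too (-2.93, adjusted p = 0.0379). Without low library 4, Ndrg1 was at -0.86 and Ak4, no longer called, at -1.37.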
